A study of Mus musculus with 4 samples.

Results

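The DNA replication and mitosis genes described here are 38 listed cell cycle genes, read on mouse expression arrays in the mammary gland of pups with and without the matrix metalloproteinase gene Mmp14. They comprise 14 genes of DNA replication that act around the G1/S transition, 21 genes of G2 and mitosis, and the 3 D-type cyclins. A gene entered through a probe set that the array annotation assigned to it alone, and the brightest such probe set was used. This gave values for 37 of the 38 genes, among 17097 genes with such a probe set in all. All 37 passed the brightness limit of 4.94, the median over all probe sets on the log2 scale, as did 11078 genes in total. Ccnb1, the mitotic cyclin B1, was not analysed here on the arrays.

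The samples were whole inguinal mammary glands taken at postnatal day 10 from Mt1-mmp(-/-) mice, which lack Mmp14 in every tissue, and from their Mt1-mmp(+/+) littermates. All mice were of the outbred Swiss Black stock. Each genotype had 2 arrays, described as biological replicates, and the values are log2 expression values. Because the gland was processed intact, fewer dividing cells and less RNA per dividing cell cannot be told apart in any value below.

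Cells that enter the cycle first make the machinery for DNA replication. E2F transcription factors, released when D-type and E-type cyclins with their kinases phosphorylate the RB family, switch on the MCM helicase, the sliding clamp PCNA and the enzymes that make deoxynucleotides. Later the cyclin A and cyclin B kinases, the Aurora and Polo kinases, the spindle motors and the checkpoint proteins accumulate for mitosis, and the anaphase-promoting complex then destroys many of them. Promoters of these late genes often carry CCAAT boxes, bound by NF-Y, and a cell cycle homology region (CHR), bound by MuvB complexes, while E2F sites are typical of the replication genes. In the growing mammary gland, cycling cells occur in the epithelium and in the surrounding tissue, so these genes are commonly read as a measure of proliferation.

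Promoter windows from RefSeq on the build GRCm38.p6, running from 250 bases before the gene start to 50 after it, were found for 29 of the 38 genes. They were searched on both strands for the CCAAT box (CCAAT), the CHR (TTTGAA) and the E2F words TTTCCCGC, TTTCGCGC, TTTGCCGC and TTTGGCGC. The following 160-base stretches, each ending at the base before the gene start, are shown because they belong to genes with large or contrasting differences below and hold the motif words counted here. Capitals mark the words, read 5′ to 3′ on the strand of the gene. The G2 and mitosis genes are Mki67 (chr7:135716380-135716539, minus strand), Ube2c (chr2:164769769-164769928, plus strand), Top2a (chr11:99024190-99024349, minus strand), Cdk1 (chr10:69352913-69353072, minus strand) and Cdc20 (chr4:118437344-118437503, minus strand).
Mki67: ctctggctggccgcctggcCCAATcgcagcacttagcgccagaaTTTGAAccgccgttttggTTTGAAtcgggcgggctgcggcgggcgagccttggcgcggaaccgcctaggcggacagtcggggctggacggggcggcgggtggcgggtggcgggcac
Ube2c: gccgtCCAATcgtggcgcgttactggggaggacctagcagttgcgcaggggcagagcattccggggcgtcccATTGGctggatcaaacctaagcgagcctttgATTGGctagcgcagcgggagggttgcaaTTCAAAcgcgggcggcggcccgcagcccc
Top2a: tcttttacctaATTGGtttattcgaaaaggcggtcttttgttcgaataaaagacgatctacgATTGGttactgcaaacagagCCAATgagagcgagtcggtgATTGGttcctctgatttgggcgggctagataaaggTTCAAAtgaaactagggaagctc
Cdk1: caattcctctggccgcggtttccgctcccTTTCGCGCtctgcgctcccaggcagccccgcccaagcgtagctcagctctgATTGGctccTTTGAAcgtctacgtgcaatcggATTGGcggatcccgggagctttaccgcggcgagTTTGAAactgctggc
Cdc20: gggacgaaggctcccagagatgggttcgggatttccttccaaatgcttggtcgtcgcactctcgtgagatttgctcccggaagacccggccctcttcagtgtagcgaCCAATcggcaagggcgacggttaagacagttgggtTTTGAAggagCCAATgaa
The replication genes are Mcm5 (chr8:75109349-75109508, plus strand), Mcm6 (chr1:128359706-128359865, minus strand), Cdc6 (chr11:98907991-98908150, plus strand) and Rrm2 (chr12:24708094-24708253, plus strand). The capital run of Mcm5 near the start of its line, and the first capital run of Mcm6, each hold a pair of E2F words on opposite strands that overlap.
Mcm5: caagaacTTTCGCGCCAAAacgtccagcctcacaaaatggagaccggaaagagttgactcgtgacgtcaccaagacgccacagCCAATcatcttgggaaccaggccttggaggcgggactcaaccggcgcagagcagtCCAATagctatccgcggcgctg
Mcm6: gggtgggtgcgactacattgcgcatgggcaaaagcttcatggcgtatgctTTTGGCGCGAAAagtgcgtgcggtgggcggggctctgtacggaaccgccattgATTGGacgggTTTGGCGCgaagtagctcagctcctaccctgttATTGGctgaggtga
Cdc6: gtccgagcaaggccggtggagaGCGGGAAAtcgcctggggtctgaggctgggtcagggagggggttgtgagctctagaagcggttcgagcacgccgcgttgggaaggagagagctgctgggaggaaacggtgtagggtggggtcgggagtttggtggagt
Rrm2: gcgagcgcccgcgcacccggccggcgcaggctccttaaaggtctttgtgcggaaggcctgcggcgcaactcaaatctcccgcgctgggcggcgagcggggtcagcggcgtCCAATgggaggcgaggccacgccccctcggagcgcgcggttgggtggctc

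Of the 16 G2 and mitosis promoters, which include that of Ccnb1, 14 (87.5%) held a CCAAT box and 11 (68.8%) held the CHR. Each of those 11 held both words, whereas 6.95% of all 32851 promoters in the table did. CCAAT alone is frequent, at 37.4% of all promoters, and the CHR word was in 17.9%. Among 13 promoters of 12 replication genes, 9 (69.2%) held CCAAT, 1 (7.69%) held the CHR and 5 (38.5%) held an E2F word. The E2F words were in 2.26% of all promoters and in 1 of the 16 G2 and mitosis promoters (6.25%), that of Cdk1. Birc5, Nusap1, Tyms, E2f1 and Ccne1 had none of the words in this window, which says only that these letters are not there. These shares describe the sequences and carry no test.

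**Figure D1:**
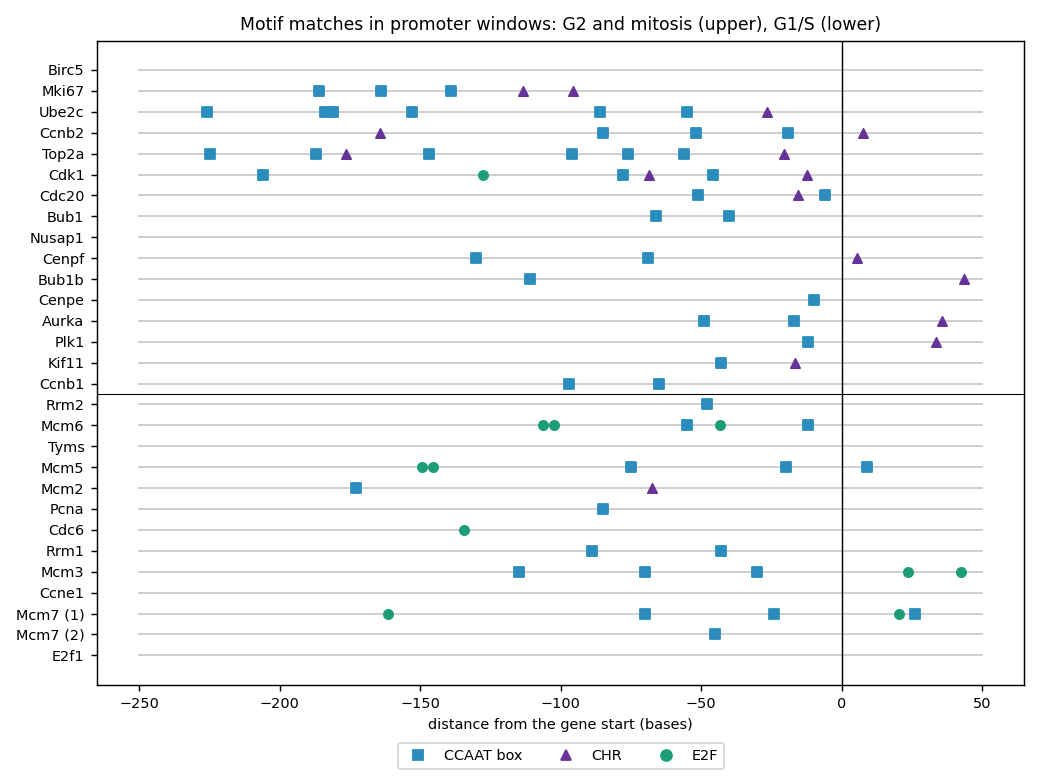
Positions of the motif words in the promoter windows of the listed genes, by distance from the gene start in bases (x axis), with G2 and mitosis genes above the dividing line and G1/S genes below it. Squares are CCAAT boxes, triangles the CHR and circles E2F words; the triangles lie in the upper block with the exception of that of Mcm2, and the circles lie in the lower block with the exception of that of Cdk1.

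The targeted gene matched the labels. Mmp14 read 8.92 and 8.73 on the wild-type arrays and 5.83 and 5.68 on the knockout arrays. The array medians were 4.92, 4.92 and 4.92, and 4.98 on knockout replicate 2. Luminal epithelial markers were present, with 15 of 16 listed genes measured and at most 4 of them below the brightness limit on any array. Both knockout arrays stood apart in markers of neighbouring tissue. On knockout replicate 2, 16 of 17 skeletal muscle markers lay above both wild-type arrays with a median difference of 5.74, and on knockout replicate 1 the median of 16 hair follicle markers was 2.45 and that of 14 epidermis markers was 2.08. The knockout arrays are given separately because earlier results of these data showed the listed genes in opposite directions on them. The opposite directions below thus describe the arrays and are not a test. Each knockout array is given throughout as a difference from the mean of the 2 wild-type arrays. Both differences use the same wild-type arrays.

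The G2 and mitosis genes were higher than the wild-type mean on knockout replicate 1 and lower on knockout replicate 2. In the median, though not in every gene, these differences exceeded that between the wild-type arrays. On knockout replicate 1, 20 of 20 measured genes lay above both wild-type arrays, by a median of 0.41 (1.33-fold). On knockout replicate 2, 19 of 20 lay below both, with a median difference of -1.77 (3.42-fold lower), with 17 of them at least 2-fold and 8 at least 4-fold lower. Between the wild-type arrays the median difference of the same genes was -0.13 (replicate 2 minus replicate 1), replicate 2 being the lower in 18 of 20. When a gene's probe sets were averaged, dim ones included, the median on knockout replicate 2 was -1.14, and when only genes above the 75th percentile of brightness were kept it was -3.48 over 9 genes. Over all 11078 tested genes, 43.2% lay above both wild-type arrays on knockout replicate 1 and 50.8% lay below both on knockout replicate 2. Of all tested genes, 12.5% did both, against 19 of the 20 G2 and mitosis genes. At least 2-fold lower on knockout replicate 2 were 5.11% of all tested genes, and at least 4-fold lower were 0.993%.

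**Figure D2:**
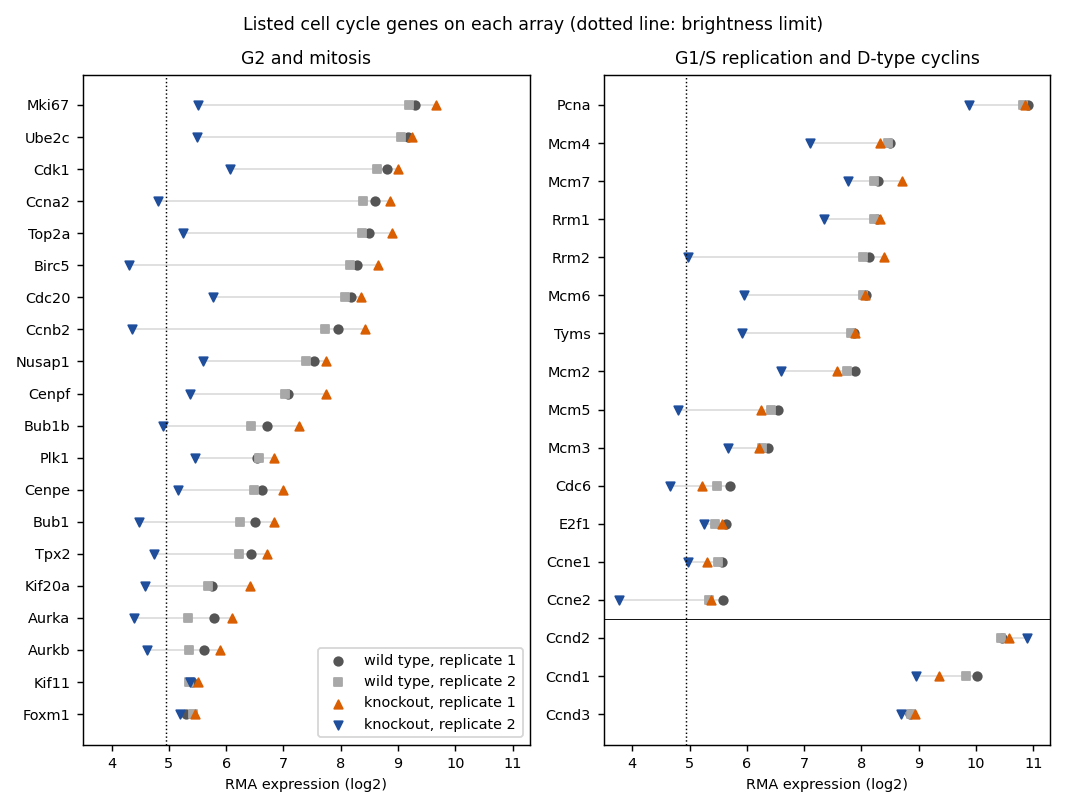
Log2 expression (x axis) of the 37 measured genes on the 4 arrays, with G2 and mitosis genes on the left, G1/S genes and D-type cyclins on the right, and a dotted line at the brightness limit of 4.94. Circles and squares are the wild-type arrays, upward triangles knockout replicate 1 and downward triangles knockout replicate 2; the downward triangles lie at the left end of nearly every line on both sides, and the upward triangles lie at the right end for all genes on the left side and, on the right side, for Mcm7, Rrm1, Rrm2, Tyms and Ccnd3.

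Among the cyclins and their kinase, Ccna2, the cyclin of S phase and early mitosis, read 8.61 and 8.39 in wild type, 8.86 on knockout replicate 1 and 4.81 on knockout replicate 2. Ccnb2, a B-type mitotic cyclin, read 7.95 and 7.72, then 8.42 and 4.36. Cdk1, their catalytic partner, read 8.81 and 8.63, then 9.00 and 6.07. In each of these genes knockout replicate 1 was the highest array and knockout replicate 2 the lowest, at 12.9-fold, 11.1-fold and 6.27-fold under the wild-type mean. Ccna2 and Ccnb2 were below the brightness limit on knockout replicate 2, where differences are compressed, so their folds are best read as lower limits. Cdk1 was above it.

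The remaining mitotic kinases were dimmer. Plk1, the Polo-like kinase of mitotic entry and spindle assembly, read 6.53 and 6.58 in wild type, 6.83 on knockout replicate 1 and 5.45 on knockout replicate 2. Aurka, the Aurora kinase of the spindle poles, read 5.78 and 5.33, then 6.10 and 4.39. Aurkb, the Aurora kinase of the chromosomal passenger complex, read 5.61 and 5.35, then 5.89 and 4.61. The order of the arrays was that of the cyclins, with differences of -1.11, -1.17 and -0.87 from wild type on knockout replicate 2. Aurka and Aurkb were under the brightness limit there, and their sizes are not comparable with those of brighter genes. The gap between the wild-type arrays of Aurka, 0.45, was the largest among the 37 genes.

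Birc5 and Mki67 differed most among the brightest probe sets. Birc5, which encodes survivin, the passenger complex subunit that directs Aurora B to the centromere, read 8.29 and 8.16 in wild type, 8.66 on knockout replicate 1 and 4.29 on knockout replicate 2, which was 15.2-fold under the wild-type mean. Mki67, which encodes the proliferation marker Ki-67, read 9.30 and 9.19, then 9.66 and 5.51, or 13.3-fold lower. Top2a, the topoisomerase that untangles sister DNA before anaphase, read 8.49 and 8.36, then 8.90 and 5.25, or 9.03-fold lower. Birc5 was under the brightness limit on knockout replicate 2, where differences are compressed, so its fold is best read as a lower limit. In all of these the knockout arrays lay on opposite sides of a closely spaced wild-type pair. Another Top2a probe set, also above the brightness limit, read 5.886 and 5.721 in wild type, 6.153 on knockout replicate 1 and 5.724 on knockout replicate 2. Its differences from the wild-type mean were 0.35 and -0.08. Knockout replicate 2 thus lay between the wild-type arrays there, without the 9.03-fold difference of the brightest probe set.

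Genes of the anaphase-promoting complex pathway differed little on knockout replicate 1. Ube2c, its ubiquitin-conjugating enzyme, read 9.17 and 9.06 in wild type, 9.24 on knockout replicate 1 and 5.50 on knockout replicate 2. Cdc20, its activator at anaphase, read 8.18 and 8.08, then 8.35 and 5.77. Both were above wild type on knockout replicate 1 by little, 0.13 and 0.23, and were 12.3-fold and 5.11-fold lower on knockout replicate 2.

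On their brightest probe sets, genes of the kinetochore and the spindle checkpoint stood above wild type on knockout replicate 1 by between 0.44 and 0.70. Cenpf, a large kinetochore protein, read 7.08 and 7.02 in wild type, 7.74 on knockout replicate 1 and 5.37 on knockout replicate 2. Bub1b, which encodes the checkpoint protein BubR1, read 6.71 and 6.44, then 7.27 and 4.90. Bub1, its paralog and a kinase of the outer centromere, read 6.50 and 6.25, then 6.83 and 4.48, and the kinetochore motor Cenpe read 6.62 and 6.49, then 6.99 and 5.17. In each of these 4 genes knockout replicate 1 was above and knockout replicate 2 below both wild-type values on that probe set. Another Bub1b probe set of similar brightness gave 0.33 and -1.21, the same directions with smaller differences. Probe sets under the brightness limit varied, with -0.20 and 0.02 on a Cenpf probe set and 0.48 and -0.23 on a Cenpe probe set.

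The spindle genes held the exception. Kif20a, a motor of the central spindle, read 5.75 and 5.69 in wild type, 6.42 on knockout replicate 1 and 4.57 on knockout replicate 2. Tpx2, which activates Aurora A on spindle microtubules, read 6.43 and 6.22, then 6.72 and 4.73. A dimmer Tpx2 probe set gave -0.05 on knockout replicate 1, between the wild-type arrays, and -0.95 on knockout replicate 2. The microtubule-bundling Nusap1 read 7.53 and 7.40, then 7.74 and 5.59. Kif11, the motor that separates the spindle poles, read 5.39 and 5.35, then 5.50 and 5.36. Knockout replicate 2 thus fell between the wild-type arrays, which no other gene of the 37 showed on its brightest probe set. A dimmer Kif11 probe set read 5.12 and 4.87 in wild type, 5.23 on knockout replicate 1 and 4.19 on knockout replicate 2, the order of the other spindle genes. Foxm1, the transcription factor of the late cell cycle genes, was dim, at 5.30 and 5.43, then 5.46 and 5.19.

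Across these 20 genes the brighter a gene was in wild type, the further below it stood on knockout replicate 2 (Spearman rho -0.91), while its distance on knockout replicate 1 showed no such order (rho -0.05). These values describe 20 genes that share the same arrays, and the wild-type level enters both quantities. A dim gene has little room to go lower: 9 of the 20 lay under the brightness limit on knockout replicate 2.

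The G1/S replication genes followed the mitosis genes on knockout replicate 2 but not on knockout replicate 1. On knockout replicate 2 all 14 lay below both wild-type arrays, with a median difference of -1.11 (2.15-fold lower), with 7 at least 2-fold and 2 at least 4-fold lower. On knockout replicate 1 the median was -0.05, with 4 genes above both wild-type arrays, 6 below both and 4 between them. Its sign depended on the wild-type array used, being 0.029 without wild-type replicate 1 and -0.11 without wild-type replicate 2. Opposite directions on the knockout arrays were thus seen in 19 of 20 G2 and mitosis genes and in 4 of 14 replication genes, while 6 of 14 replication genes were below wild type on both. Among all tested genes, 32.5% were below both wild-type arrays on both knockout arrays. On knockout replicate 1, 43.7% of all tested genes lay below both.

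**Figure D3:**
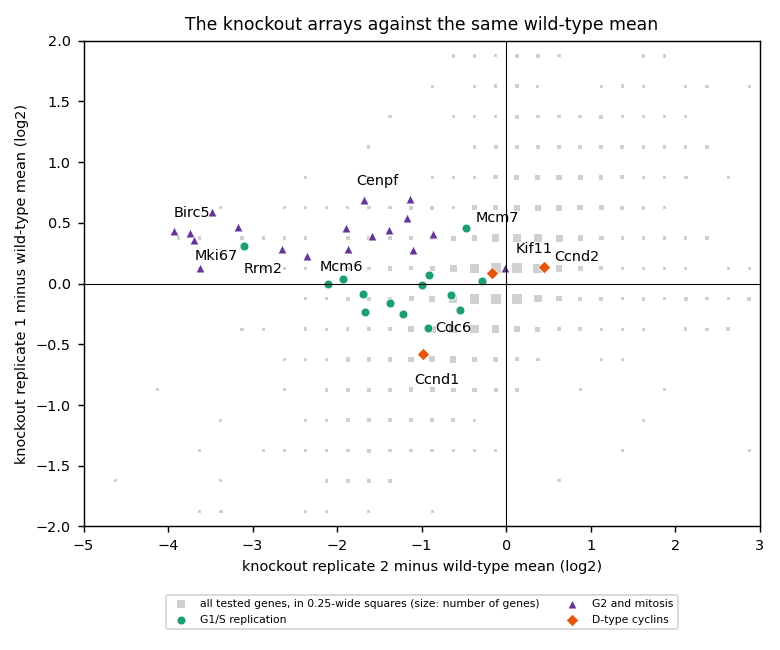
Difference from the wild-type mean on knockout replicate 2 (x axis) and on knockout replicate 1 (y axis), both log2, for the 3 sets of listed genes (points) over all tested genes (grey squares sized by the number of genes, 163 genes lying outside the axes). The 20 triangles of G2 and mitosis lie above the horizontal line and left of the vertical line, Kif11 and Foxm1 close to it, whereas the 14 circles of G1/S replication lie left of the vertical line and spread to both sides of the horizontal line.

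The 6 subunits of the MCM helicase took different directions on knockout replicate 1, where their median was -0.13 with 4 below both wild-type arrays, 1 above and 1 between. Mcm2 read 7.88 and 7.76 in wild type, 7.57 on knockout replicate 1 and 6.60 on knockout replicate 2. Mcm4 read 8.50 and 8.47, then 8.33 and 7.11, and Mcm5 read 6.54 and 6.42, then 6.24 and 4.80. Together with Mcm3 (6.36 and 6.26, then 6.22 and 5.66) these subunits were below wild type on both knockout arrays. Mcm6 read 8.09 and 8.03, then 8.06 and 5.95, level with wild type on knockout replicate 1 and 4.31-fold lower on knockout replicate 2. Mcm7 read 8.29 and 8.21, then 8.71 and 7.77, and was the only subunit above both wild-type arrays on knockout replicate 1.

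Of the genes that load the helicase or start S phase, Cdc6, the loader of the MCM ring, read 5.70 and 5.47 in wild type, 5.22 on knockout replicate 1 and 4.66 on knockout replicate 2. Ccne1, an E-type cyclin, read 5.57 and 5.49, then 5.31 and 4.98. Ccne2, the other E-type cyclin, read 5.59 and 5.34, then 5.38 and 3.77. Cdc6 and Ccne1 were below both wild-type arrays on both knockout arrays, and Ccne2 on knockout replicate 2 alone. On that array Cdc6 and Ccne2, like Mcm5, were under the brightness limit, 3 of the 14 replication genes in all. E2f1, the transcription factor that drives this group, was dim and little different, at 5.64 and 5.44, then 5.56 and 5.26.

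The genes of deoxynucleotide supply and the replication fork differed mainly on knockout replicate 2. Rrm2, the regulated subunit of ribonucleotide reductase, read 8.13 and 8.03 in wild type, 8.39 on knockout replicate 1 and 4.97 on knockout replicate 2, 8.61-fold under the wild-type mean and the largest difference of the 14. Rrm1, its large subunit, read 8.28 and 8.22, then 8.32 and 7.34, or 1.88-fold lower. Tyms, the thymidylate synthase, read 7.87 and 7.81, then 7.88 and 5.91. Pcna, the clamp that holds DNA polymerase on its template, was the brightest of them at 10.91 and 10.83, then 10.86 and 9.87. On knockout replicate 1 Rrm2 resembled the mitosis genes in its direction (0.31), and Rrm1, Tyms and Pcna stood within 0.07 of the wild-type mean. Another Rrm2 probe set gave 0.41 and -1.26, the same directions with a smaller difference on knockout replicate 2.

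The D-type cyclins, which couple growth signals to the start of the cycle, differed from each other. Ccnd1, needed for normal growth of the mammary epithelium, read 10.03 and 9.83 in wild type, 9.35 on knockout replicate 1 and 8.94 on knockout replicate 2. It was below both wild-type arrays on both knockout arrays, as were 32.5% of all tested genes. This order was seen on 3 of 3 of its probe sets, which read the same samples. The difference was -0.78 ± 0.18 (SE, limma, n = 2 per group), with an unadjusted p of 0.013 and an adjusted p of 0.153, which did not pass the threshold. Without wild-type replicate 1 the limma difference was -0.69, with an adjusted p of 0.859, and without wild-type replicate 2 it was -0.88, with an adjusted p of 0.846. Ccnd2 read 10.46 and 10.44, then 10.58 and 10.90, the only gene of the 37 that was above both wild-type arrays on knockout replicate 2. Its difference was 0.29 ± 0.14 (limma adjusted p = 0.324), and its other probe sets ranged on knockout replicate 2 from 0.02 to 0.58. Ccnd3 read 8.85 and 8.87, then 8.94 and 8.69, within 0.16 of wild type on either array. Over all tested genes 38.7% lay above both wild-type arrays on knockout replicate 2.

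**Figure D4:**
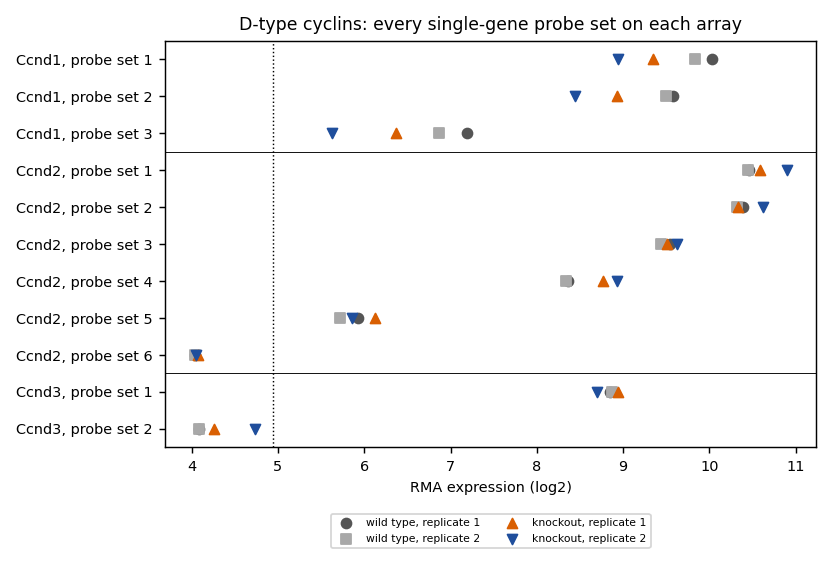
Log2 expression (x axis) on every probe set assigned to Ccnd1, Ccnd2 or Ccnd3 alone, brightest first within each gene, with a dotted line at the brightness limit of 4.94. For Ccnd1 the array order is the same on all 3 probe sets, with both triangles left of the wild-type circle and square, whereas the Ccnd2 and Ccnd3 probe sets do not share an order.

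The genotypes were compared with limma over all 11078 tested genes with Benjamini-Hochberg adjustment. No gene of the list passed an adjusted p of 0.05, nor did any other tested gene (0%, smallest adjusted p 0.0738). At an unadjusted limma p under 0.05, 0 of the 37 genes were higher and 1, Ccnd1, was lower, against 9.69% of all tested genes higher and 12.1% lower. The smallest adjusted p was 0.231 among the replication genes, for Cdc6 (-0.64 ± 0.23), and 0.488 among the mitosis genes, for Ube2c (-1.74 ± 1.34). Large mean differences came with large errors, as in Birc5 (-1.75 ± 1.56, limma adjusted p = 0.544) and Mki67 (-1.66 ± 1.48, limma adjusted p = 0.544), and in both the knockout arrays lay on opposite sides of wild type.

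The counts turned on which knockout array was used. In limma fits that leave out a knockout array and assume that the remaining array varies like the others, the set without knockout replicate 1 gave adjusted p under 0.05 and lower levels for 13 of 14 replication genes, 18 of 20 mitosis genes and Ccnd1 (adjusted p = 0.0133), where 24.6% of all tested genes were called lower. The exceptions were E2f1 (adjusted p = 0.139), Kif11 (adjusted p = 0.908), Foxm1 (adjusted p = 0.231) and Ccnd3 (adjusted p = 0.167), and Ccnd2 was called higher (0.45 ± 0.07, limma adjusted p = 0.0229). Without knockout replicate 2, 2 of 20 mitosis genes were called higher, Cenpf (0.69 ± 0.08, limma adjusted p = 0.0338) and Kif20a (0.70 ± 0.08, limma adjusted p = 0.0334), and 0 of 14 replication genes, where 6.73% of all tested genes were called higher and 4.99% lower. Ccnd1 was at -0.58 there, with an adjusted p of 0.0608. Such a fit describes the array that was kept, not the genotype.

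Further cell cycle genes that are not among the 38 were read from 3 more lists. Most of those of mitosis, and most of those of replication, showed the same division. Of 52 other tested mitosis genes, 47 lay above both wild-type arrays on knockout replicate 1 (median 0.36) and 52 below both on knockout replicate 2 (median -1.26, with 34 at least 2-fold lower), and 47 did both. Examples are Ckap2, a spindle-associated protein (7.20 and 7.19 in wild type, 8.03 on knockout replicate 1 and 4.92 on knockout replicate 2), and Cks2, a subunit of cyclin-dependent kinase complexes (9.14 and 9.01, then 9.44 and 6.32). Spc25 of the kinetochore stood at 0.56 and -2.62 from wild type. Exceptions included Cep55, a protein of the final separation of daughter cells, which was between the wild-type arrays on knockout replicate 1 (7.99 and 7.68, then 7.97 and 4.88), Depdc1b (-0.08 and -0.06) and Ncaph (-0.01 and -1.15). None of the 52 passed an adjusted p of 0.05 by limma (smallest 0.468), and 0 had an unadjusted p under 0.05.

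Of 40 other tested replication genes, 26 lay above both wild-type arrays on knockout replicate 1 and 11 below (median 0.08), and 38 lay below both on knockout replicate 2 (median -0.75, with 13 at least 2-fold lower). Above on the former and below on the latter were 25 of the 40, against 4 of the 14 listed replication genes and 12.5% of all tested genes. Tk1, the thymidine kinase of S phase, read 7.74 and 7.51, then 8.09 and 5.36. Prim1, a primase subunit, stood at 0.39 and -1.75 from wild type, and Uhrf1, which links replication to DNA methylation, at 0.03 and -1.92. Pola2, a subunit of the polymerase that starts new strands, was lower than both wild-type arrays on both knockout arrays, by differences of -0.41 and -0.47. That gene had the smallest adjusted limma p of the list, 0.143, so that none passed.

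The 31 other tested regulators of the cycle, such as inhibitors, RB family members and E2F factors, had medians of 0.08 on knockout replicate 1 and -0.19 on knockout replicate 2. Of these, 19 lay above both wild-type arrays and 6 below both on knockout replicate 1, 20 lay below both and 9 above both on knockout replicate 2, and 10 were above on the former and below on the latter. At an unadjusted limma p under 0.05, 3 of the 31 were higher and 0 lower, against 9.69% and 12.1% of all tested genes. Above both wild-type arrays on both knockout arrays were 7 of the 31, against 2909 of all 11078 tested genes. Cdk6, a kinase partner of the D-type cyclins, was higher on both knockout arrays, at 7.46 and 7.67, then 8.16 and 8.30, with a limma adjusted p of 0.131 that did not pass. Rbl2, an RB family member, stood at 0.39 and 0.37 from wild type. In contrast E2f2 was lower on both (6.93 and 6.83, then 6.48 and 5.53), E2f7, a repressor of the family, was at -0.02 and -1.57, and Skp2, a ubiquitin ligase subunit that targets p27, was at -0.16 and -1.16. Myc stood at 0.74 and 0.32 from wild type.

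Markers of other tissues differed between the same arrays, and their values stand beside the cell cycle genes here. Hair follicle markers were above both wild-type arrays in 15 of 16 genes on knockout replicate 1 and below both in 14 of 16 on knockout replicate 2 (medians 2.45 and -1.16). Their summed linear level was 1146 and 4321 in wild type, 14656 on knockout replicate 1 and 533 on knockout replicate 2, where 9 of 16 were under the brightness limit. These markers thus went in the directions of the mitosis genes on both knockout arrays. Between the wild-type arrays (replicate 2 minus replicate 1) the median difference was 1.56 for hair follicle markers. It was -0.13 for the G2 and mitosis genes and -0.09 for the replication genes. Epidermis markers summed to 662 and 663 in wild type, 3599 on knockout replicate 1 and 792 on knockout replicate 2, so that they were high beside the mitosis genes on knockout replicate 1 and near wild type on knockout replicate 2 (median -0.04). Under the brightness limit were 8 and 7 of the 14 in wild type, 1 on knockout replicate 1 and 8 on knockout replicate 2. The part of hair follicle and epidermis in the knockout values was not tested.

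Skeletal muscle markers summed to 521 and 3296 in wild type, 499 on knockout replicate 1 and 52992 on knockout replicate 2, and 1 of 17 was under the brightness limit on knockout replicate 2, against 10 and 3 on the wild-type arrays and 11 on knockout replicate 1. They were highest on the array where the cell cycle genes were lowest. Wild-type replicate 2 was 1.55 above replicate 1 in the median of these markers, with a sum far under that of knockout replicate 2. Between the same wild-type arrays the median difference was -0.13 for the G2 and mitosis genes and -0.09 for the replication genes. Fibroblast markers had a median of 0.01 on knockout replicate 2, against -0.09 for endothelium, 0.54 for luminal epithelium and 0.23 for basal epithelium. On knockout replicate 1 these medians were 0.10, -0.38, 0.72 and 0.43. Between the wild-type arrays (replicate 2 minus replicate 1) they were -0.18, -0.04, -0.69 and -0.15. The wild-type arrays thus differed in luminal epithelium by about as much as the knockout arrays stood from wild type. White adipocyte markers stood at 0.00 and -0.16. Of these 9 genes, 4 lay above and 4 below both wild-type arrays on knockout replicate 1, and 1 above and 6 below on knockout replicate 2. The lowest gene was at -3.76 and -6.23. Brown and beige adipocyte markers stood at -0.83 and -1.03 (7 of 7 below both wild-type arrays on knockout replicate 2, 6 of 7 on knockout replicate 1). Erythroid markers stood at -0.39 and -0.22, with 7 of 7 below both on knockout replicate 1 and 6 of 7 on knockout replicate 2. Their lowest values were -1.86 and -2.39. Macrophage markers stood at -0.58 and -0.19. The remaining lists were at -0.13 and 0.05 for B cells, -0.13 and -0.02 for T cells, 0.71 and 0.88 for mast cells, and 0.37 and 0.49 for Schwann cells. Of the 6 B cell markers, 4 were under the brightness limit on each wild-type array, 6 on knockout replicate 1 and 5 on knockout replicate 2. Their medians are therefore largely of values near background, where differences are compressed. The part of skeletal muscle in the low values of knockout replicate 2 was not tested.

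**Figure D5:**
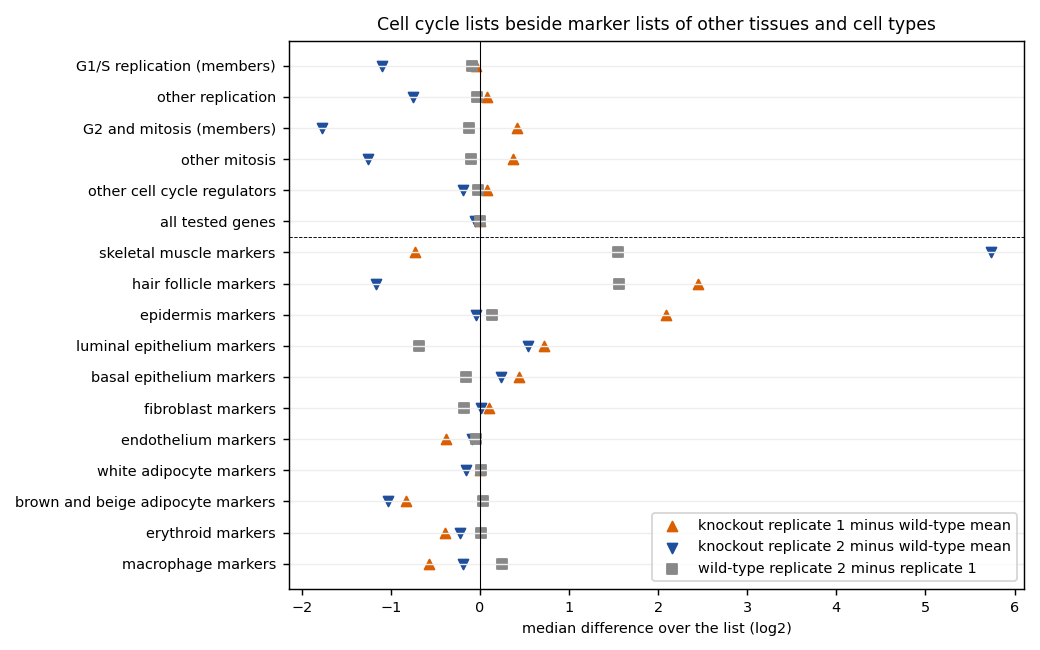
Median log2 difference over each list (x axis) for knockout replicate 1 (upward triangles) and knockout replicate 2 (downward triangles) from the wild-type mean, and for wild-type replicate 2 minus replicate 1 (squares), with cell cycle lists above the dashed line and marker lists below it. The G2 and mitosis genes stand at 0.41 and -1.77 with a wild-type difference of -0.13, and the skeletal muscle and hair follicle lists show wild-type differences of 1.55 and 1.56.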

How the data were processed

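The files held log2 expression values of 4 Affymetrix arrays. The authors made these log2 values with RMA in the package affy, per the submitters' processing notes, whose versions are not given in the sources used here. The log2 scale was read from the deposited values. RMA aligns the arrays' distributions and compresses differences near background, and precision is limited by having few arrays. The annotation gave 28898 of 45141 probe sets a single gene, 551 several and 15692 none. Only single-gene probe sets were used, the brightest per gene by its mean over 4 arrays. Genes with a mean of at least 4.94 were tested with limma 3.58.1 (lmFit, eBayes) in R 4.3.3 on all 4 arrays without covariates. P-values were Benjamini-Hochberg adjusted over 11078 genes at 0.05, and the procedure was tested on simulated data. Nothing in the labels gives separate litters, so p-values measure only the spread between these samples. Members, gene lists and marker lists were chosen with earlier results of these data known. Named were all 38 listed genes, the targeted gene and, of each of the 3 other cell cycle lists, genes among the 3 with the smallest limma p in each direction and the 3 with the largest difference between the knockout arrays in each direction. The 15 marker lists were given by medians, sums and counts, with the lowest values added for white adipocyte and erythroid markers.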

Additional observations from a re-analysis of the deposited data

How the results depend on the processing

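No gene passed an adjusted p of 0.05 under any alternative that kept all 4 arrays; at 0.10, 7 genes were higher and 10 lower with the settings of the report, 163 and 196 with the 75th percentile filter (fewer genes tested), 139 and 164 with quantile normalisation, 126 and 146 with cyclic loess, 105 and 133 with a robust prior, 93 and 111 with an intensity trend, 82 and 121 with probe sets averaged, 42 and 57 without probe sets that can match several transcripts, and 0 and 0 with array weights or the replicate block. Leaving out each array in turn gave 0 to 1455 genes higher and 0 to 2725 lower. The highest counts came without knockout replicate 1, and leaving out knockout replicate 2 gave 746 and 553. Listed genes higher at an unadjusted p numbered 0 to 15 on leaving out an array (15 without knockout replicate 2), and those lower 0 to 32 (32 without knockout replicate 1, 0 without wild-type replicate 1). In the fits without a knockout array many of all tested genes also passed that unadjusted limit, in both directions. Such a fit describes the array that was kept, not the genotype, and its counts are not evidence about the listed genes alone. The count of listed genes lower was 2 instead of 1 with array weights, the replicate block, a robust prior, an intensity trend or no brightness filter. The labels do not say which arrays are littermates, so the numbers were not used as pairs. Over genes, the gap between the wild-type arrays and that between the knockout arrays had a correlation of -0.09. With 1 gap per genotype, this cannot show whether same-numbered arrays are paired. The block, like the main fit, called no gene at an adjusted p of 0.05 by limma (smallest 0.207).

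The medians moved as follows. For replication genes on knockout replicate 1 the median went from -0.05 to 0.020 over genes above the 75th percentile of brightness, and from -0.11 to 0.029 on leaving out an array. On knockout replicate 2 it went from -1.11 to -1.30 above the 75th percentile, -0.92 with probe sets averaged, -1.37 without probe sets that can match several transcripts and -0.98 with the D-type cyclins included. For mitosis genes on knockout replicate 1 it went from 0.41 to 0.28 with probe sets averaged, and from 0.30 to 0.50 on leaving out an array. On knockout replicate 2 it went from -1.77 to -3.48 above the 75th percentile (9 genes kept), -1.14 with probe sets averaged, and -1.68 either without probe sets that can match several transcripts or without Ccna2; leaving out an array gave -1.88 to -1.71. That percentile drops the dim genes and averaging adds dim probe sets; for the rest the cause was not tested. Of 345 single-gene values on knockout replicate 1, 15 moved by more than the wild-type SD and 9 changed sign, in Ccne2, E2f1, Mcm6 and Pcna. On knockout replicate 2, 60 of 345 moved and 2 changed sign, in Ccnd3 and Kif11. The brightness limit is the median over all probe sets and not a detection floor. Values can lie below it, as for Ccne2 at 3.77 on knockout replicate 2, but differences near background are compressed.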
